A study of Homo sapiens with 4 samples.

Results

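Aminoacyl-tRNA synthetases load each amino acid onto its own tRNA, the step that sets the genetic code before translation. Human cells keep separate enzymes for the cytosol and for mitochondria, all encoded in the nucleus and nearly all by different genes. GARS1 (glycine) and KARS1 (lysine) each serve both compartments. Many cytosolic synthetase genes are known targets of ATF4, the transcription factor of the amino acid response, whereas mutations in the mitochondrial enzymes are known for disorders of brain, heart and other tissues.

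The genes described are those whose annotation contains the words tRNA synthetase, 41 of the 20323 gene rows in each count table. They comprise 19 cytosolic and 17 mitochondrial enzymes, the 2 enzymes of both compartments, and the scaffold proteins AIMP1 and AIMP2. The last is AARSD1, an editing protein that clears wrongly charged tRNA for alanine. Compartments were assigned from textbook knowledge, not from the data. Each of the 41 genes passed the filter on low counts, and counts of single members ran from 151 (SARS2) to 7972 (MARS1) in a library.

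RNA was measured by poly(A) sequencing in HCT-8 cells, a human colorectal cancer line, made resistant to 5-fluorouracil. The 2 control libraries carried a negative control plasmid and the 2 METTL14 overexpression libraries a METTL14 plasmid. METTL14 is the partner of METTL3 in the complex that writes N6-methyladenosine on mRNA. All 4 libraries came from cells given cycloheximide, which blocks translation elongation, at 100 ug/mL, so each comparison is between cells with translation blocked. The labels name no clone, promoter, time or transfection efficiency, and the series text describes work repeated in independent experiments without saying which libraries share one. If libraries of a group came from 1 culture, the p-values measure only technical spread.

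Totals ran from 19206661 to 20161082 counts per library, of which the 41 genes took 0.467 to 0.503%. METTL14 counts were 472 and 598 in control libraries, and 7593 and 8516 with its plasmid (14.7-fold, edgeR adjusted p = 7.33e-05). Levels are given in CPM, the library-scaled counts of edgeR. At 1 CPM or more, 10 of 12 colorectal epithelial markers were detected in the controls and 11 with METTL14. The summed level of the epithelial markers was 11949 to 18270 CPM in the controls and 9179 to 9400 CPM with METTL14. Fibroblast markers (4 and 3 of 6 at that level) summed to 12.6 to 16 and 18 to 19.6 CPM, and leukocyte markers (1 and 2 of 6) to 1.77 to 2.26 and 2.98 to 3.8 CPM. Endothelial markers (0 and 1 of 4) summed to 0.411 to 0.988 and 1.53 to 1.85 CPM, and CD3E of leukocytes and KDR of endothelium were at 0 throughout. The part of these shifts in the synthetase results was not tested. In bulk RNA, fewer cells expressing a gene and less RNA per cell cannot be told apart. The 2 controls lay further apart than the 2 METTL14 libraries, with chi-square values of 24.67 and 3.011 for each degree of freedom.

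With METTL14, cytosolic synthetase mRNAs moved in both directions, and mitochondrial ones fell or did not pass the test, with a single exception. Of the 19 cytosolic genes, 6 were higher, 8 were lower and 5 were not called (edgeR's quasi-likelihood test, p adjusted over 12700 genes by Benjamini-Hochberg, threshold 0.05). Of the 17 mitochondrial genes, 1 was higher, 6 were lower and 10 were not called. Across all genes tested, 27.0% were higher and 28.1% lower. The cytosolic share of higher genes (31.6%) and the mitochondrial share of lower genes (35.3%) lay near that background. The mitochondrial share of higher genes (5.88%) lay below it, and the cytosolic share of lower genes (42.1%) above it. The median log2 fold change was -0.17 for cytosolic and -0.32 for mitochondrial enzymes, against -0.01 for all genes. Genes are not replicates, and the difference between the compartments was not tested. Without control replicate 1 the medians were -0.15 for cytosolic and -0.13 for mitochondrial enzymes, so the order of the compartments turned. Counts of called genes depended on single libraries, and so did the calls over all genes. Counts without a library are therefore not read against these shares. The mitochondrial median was -0.40 without METTL14 replicate 1, -0.29 without METTL14 replicate 2 and -0.39 without control replicate 2. The cytosolic medians were -0.20, -0.14 and -0.16 in the same order.

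**Figure D1:**
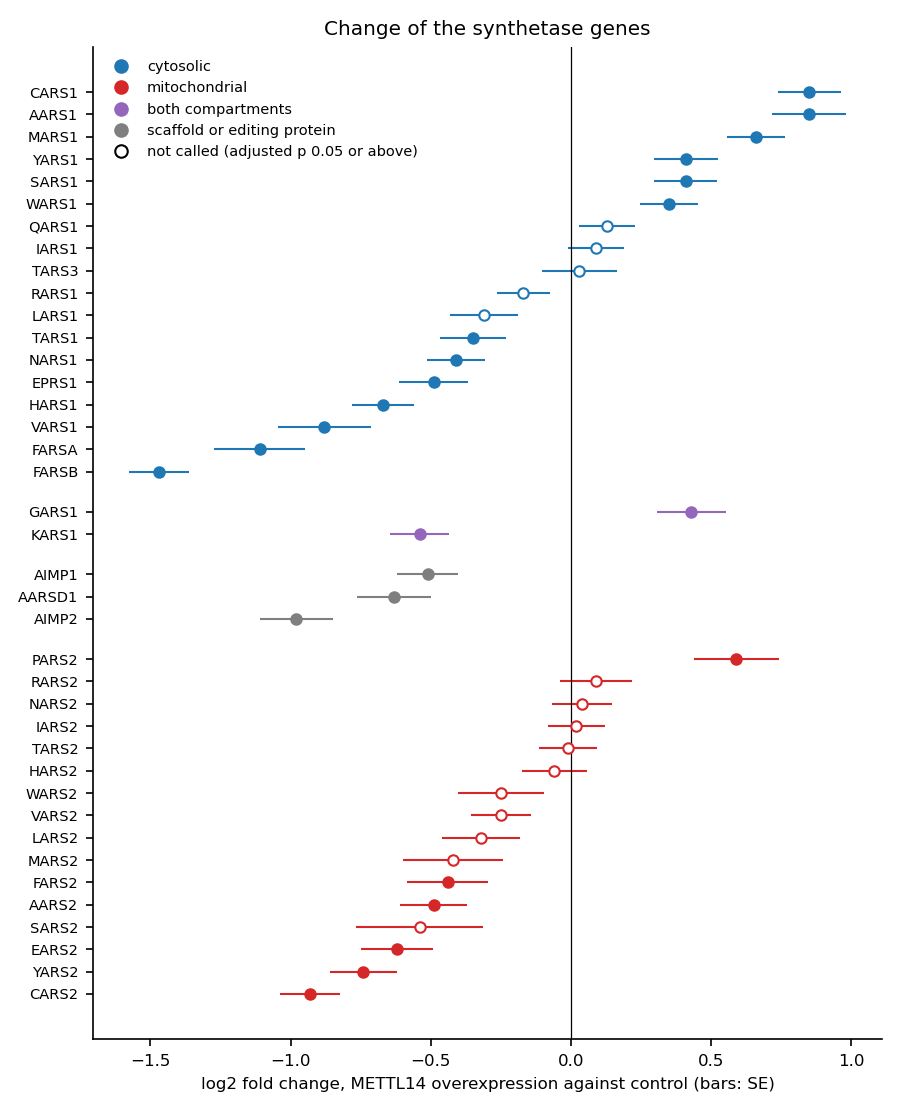
Log2 fold change of the synthetase genes (x axis, METTL14 overexpression against control) with its standard error as a bar, grouped by compartment. Filled points passed the test and open points did not. Cytosolic enzymes run from -1.47 to 0.85 and mitochondrial ones shown from -0.93 to 0.59, with 1 filled mitochondrial point above 0.

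Summed levels show the balance of these changes in each library. Summed over the 19 genes, cytosolic synthetases stood at 3327 and 3450 CPM in the controls and at 3339 and 3278 CPM with METTL14, and the groups overlapped. The 6 higher genes together went from 918 and 1077 to 1524 and 1483 CPM, while the 8 lower ones went from 1601 and 1520 to 971 and 971 CPM. Mitochondrial synthetases summed to 905 and 844 CPM in the controls and to 735 and 710 CPM with METTL14, without overlap. The cytosolic sum was thus 3.68 and 4.09 times the mitochondrial one in the controls, and 4.54 and 4.62 times with METTL14. This ratio does not depend on how libraries are scaled.

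**Figure D2:**
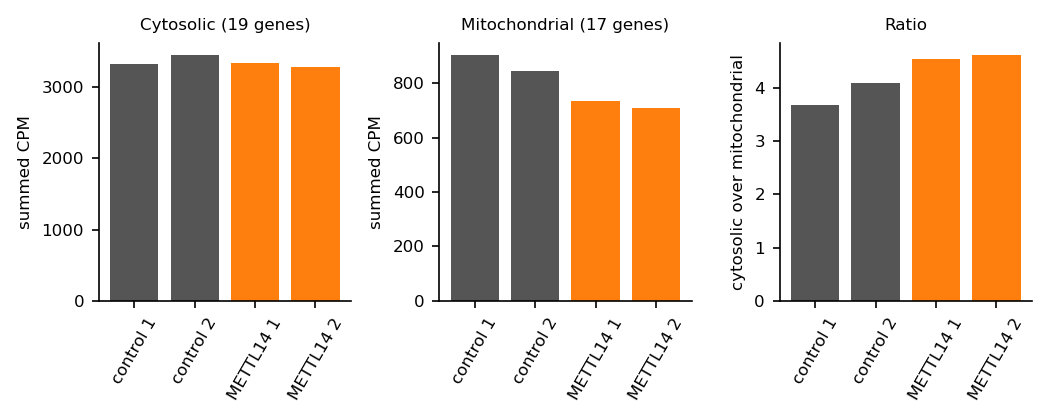
Summed CPM of the cytosolic enzymes (left), of the mitochondrial enzymes (middle) and their ratio (right), 1 bar per library, grey for control and orange for METTL14 overexpression, each axis starting at 0. The cytosolic sums overlap between groups, the mitochondrial sums are lower with METTL14 in both libraries, and the ratio is higher in both.

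Among the cytosolic risers, CARS1, the cysteinyl-tRNA synthetase (ENSG00000110619, GRCh38 chromosome 11, 3000922 to 3057613, minus strand), stood at 73.6 and 85.8 CPM in the controls and 147 and 140 CPM with METTL14. Both METTL14 libraries lay well above both controls, a 1.80-fold rise (log2 fold change 0.85, SE 0.112, edgeR adjusted p = 0.000746). AARS1, the alanyl-tRNA synthetase (ENSG00000090861, chromosome 16, 70252295 to 70289543, minus strand), had 163 and 208 CPM against 337 and 332 CPM (0.85, SE 0.132, edgeR adjusted p = 0.0015). MARS1, which charges methionine, had 238 and 267 CPM against 404 and 394 CPM (0.66, SE 0.103, edgeR adjusted p = 0.00153). MARS1 shares 12.4% of its exon sequence with ARHGAP9 and DDIT3 on the opposite strand, and the labels do not say whether counting used strand. These 3 calls held when any single library was left out.

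Smaller rises did not hold in every analysis. SARS1, for serine, went from 83.0 and 96.2 to 124 and 114 CPM (log2 fold change 0.41, SE 0.112, edgeR adjusted p = 0.0174). YARS1, for tyrosine, went from 178 and 211 to 263 and 254 CPM (0.41, edgeR adjusted p = 0.0179), and WARS1, for tryptophan, which is also known as interferon-inducible, from 183 and 209 to 249 and 249 CPM (0.35, edgeR adjusted p = 0.0256). In each of the 3 genes the groups did not overlap, yet no call was made once either METTL14 library was dropped. YARS1 (0.18) and WARS1 (0.22) also missed the threshold after correction for transcript length and GC.

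The largest falls of the cytosolic set were in both subunits of 1 enzyme, the phenylalanyl-tRNA synthetase. FARSB, its beta subunit (ENSG00000116120, GRCh38 chromosome 2, 222570536 to 222656337, minus strand), dropped from 131 and 117 to 45.9 and 43.8 CPM. That is 2.76-fold lower, with a wide gap between the groups (log2 fold change -1.47, SE 0.107, edgeR adjusted p = 0.000114). FARSA, the alpha subunit (ENSG00000179115, chromosome 19, 12922479 to 12934037, minus strand), fell from 201 and 142 to 80.1 and 79.1 CPM, or 2.16-fold (-1.11, SE 0.162, edgeR adjusted p = 0.00118). The controls of FARSA lay far apart, and both METTL14 libraries were below the lower of them.

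VARS1, the valyl enzyme, fell from 375 and 265 to 183 and 166 CPM (log2 fold change -0.88, SE 0.166, edgeR adjusted p = 0.00365). The estimate was -0.60 without control replicate 1, -1.11 without control replicate 2 and -1.33 after correction for transcript length and GC. HARS1, for histidine, fell from 154 and 133 to 92.3 and 88.2 CPM (-0.67, SE 0.11). Its fall, like those of FARSA, FARSB and VARS1, was called whichever library was left out. EPRS1, the fused enzyme for glutamate and proline, was lower by less (200 and 244 against 152 and 165 CPM, edgeR adjusted p = 0.0128). NARS1, for asparagine, had 260 and 294 against 208 and 209 CPM (edgeR adjusted p = 0.0125), and TARS1, for threonine, 183 and 220 against 153 and 162 CPM (edgeR adjusted p = 0.0358). The calls of EPRS1, NARS1 and TARS1 were lost without either METTL14 library, and that of TARS1 also with library totals in place of TMM. TARS1 was at -0.22 without control replicate 2.

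**Figure D3:**
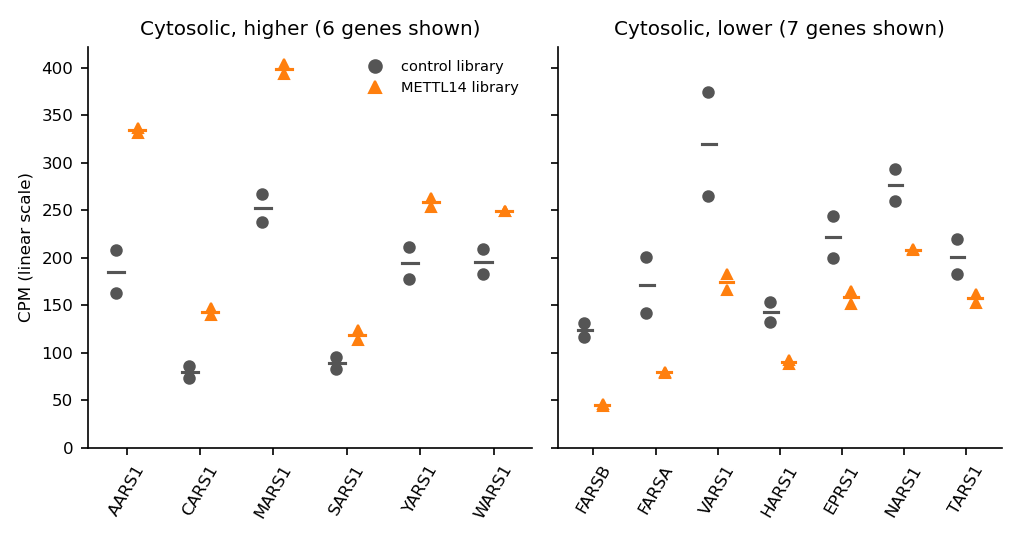
CPM (linear axis from 0) of the cytosolic genes that passed the test, with 1 point per library and a short line at each group's mean, the 6 higher genes on the left and 7 of the 8 lower on the right. In none of the genes shown do the METTL14 libraries (triangles) overlap the controls (circles). VARS1 and FARSA show the widest gap between the controls.

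The remaining cytosolic genes had smaller changes that missed the threshold. QARS1 (glutamine, log2 fold change 0.13), IARS1 (isoleucine, 0.09), TARS3 (a second threonyl enzyme, 0.03), RARS1 (arginine, -0.17) and LARS1 (leucine, -0.31, edgeR adjusted p = 0.0612) were not called. Of these 5, only TARS3 had overlapping groups. Non-overlap is common in these data, however: it held for 35 of the 41 members (85.4%) and for 79.8% of all genes tested. IARS1, at 315 and 350 against 353 and 355 CPM, shows how small a gap can separate the groups.

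The enzymes of both compartments went in opposite directions. KARS1, the lysyl-tRNA synthetase, fell from 302 and 265 to 197 and 191 CPM (log2 fold change -0.54, SE 0.105, edgeR adjusted p = 0.00403). GARS1, the glycyl-tRNA synthetase, rose from 204 and 253 to 313 and 305 CPM (0.43, SE 0.124, edgeR adjusted p = 0.0204). The call of GARS1 was lost without either METTL14 library, and that of KARS1 without METTL14 replicate 2.

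Of the mitochondrial enzymes, CARS2, for cysteine (ENSG00000134905, GRCh38 chromosome 13, 110641412 to 110713603, minus strand), fell from 67.0 and 62.8 to 35.0 and 33.0 CPM (log2 fold change -0.93, SE 0.108, edgeR adjusted p = 0.000455). The libraries of a group lay close together compared with the distance between groups. YARS2, for tyrosine, fell from 40.2 and 36.6 to 23.8 and 22 CPM (-0.74, SE 0.119), and EARS2, for glutamate, from 65.1 and 53.0 to 38.5 and 38.3 CPM (-0.62, SE 0.129). These 3 calls held without any single library. AARS2, for alanine (-0.49, edgeR adjusted p = 0.011), and FARS2, for phenylalanine (-0.44, edgeR adjusted p = 0.0325), were lower too, but lost their calls without either METTL14 library. FARS2 was also not called with DESeq2 (DESeq2 adjusted p = 0.0924) or with library totals in place of TMM (edgeR adjusted p = 0.067). AARS2 was at -0.85 after correction for transcript length and GC.

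PARS2, for proline (ENSG00000162396, GRCh38 chromosome 1, 54756898 to 54764514, minus strand), was the mitochondrial gene called higher, from 10.2 and 9.19 to 15.3 and 13.9 CPM. Its rise (log2 fold change 0.59, SE 0.152, edgeR adjusted p = 0.0138) rests on 196, 179, 297 and 281 counts, and the call was lost without either METTL14 library. HARS2, TARS2, IARS2, NARS2 and RARS2 had log2 fold changes from -0.06 to 0.09, and their groups overlapped. After correction for transcript length and GC, RARS2 was at 0.40 and called higher (edgeR adjusted p = 0.0327). SARS2 (-0.54), MARS2 (-0.42), LARS2 (-0.32), VARS2 (-0.25) and WARS2 (-0.25) were below 0 without passing the test. With the same correction SARS2 (-0.69), LARS2 (-0.58) and VARS2 (-0.65) were called lower, and MARS2 (-0.46) and WARS2 (-0.07) were not. The controls of MARS2 were 45.4 and 31.2 CPM and those of LARS2 84.7 and 66.2 CPM. Without control replicate 1 the estimates were -0.22 for SARS2, -0.12 for MARS2, -0.13 for LARS2, -0.26 for VARS2 and -0.13 for WARS2. Without control replicate 2 they were -0.80, -0.67, -0.49, -0.25 and -0.36 in the same order. SARS2 shares 57.0% of its exon sequence with MRPS12 and a second gene of the same symbol, whose row is at 0 in each library, and VARS2 shares 22% with GTF2H4.

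For a given amino acid, the cytosolic and mitochondrial genes can be compared within a library, where scaling has no effect. Among 19 such pairings the ratio of cytosolic to mitochondrial counts was higher with METTL14 without overlap in 8 and lower without overlap in 8, and the groups overlapped in 3. For levels of single genes, 79.8% of all genes tested did not overlap either. The widest change was for cysteine: CARS1 had 1.10 and 1.37 times the counts of CARS2 in the controls and 4.20 and 4.24 times with METTL14. The alanine ratio (AARS1 to AARS2) went from 3.08 and 4.59 to 9.45 and 9.69, and the tyrosine ratio (YARS1 to YARS2) from 4.42 and 5.76 to 11 and 11.5. These are the 3 amino acids whose cytosolic gene was called higher and mitochondrial gene lower. At the other end, EPRS1 had 19.6 and 26.6 times the counts of PARS2 in the controls and 9.99 and 11.9 times with METTL14. Pairings that share EPRS1, FARS2 or TARS2 are not independent of each other.

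**Figure D4:**
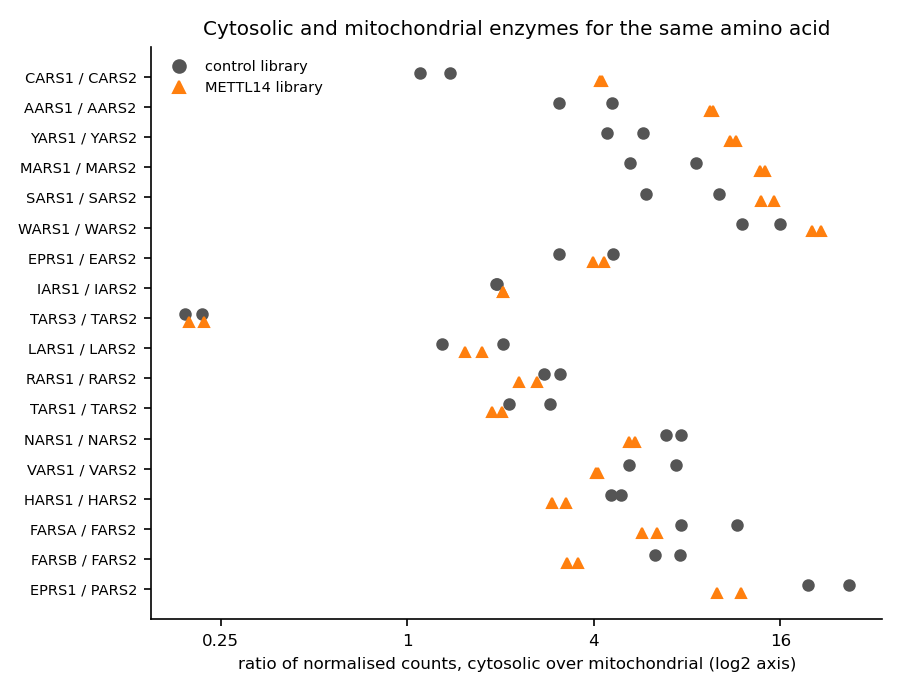
Ratio of normalised counts of the cytosolic to the mitochondrial gene for the same amino acid (log2 axis), 2 control libraries (circles) and 2 METTL14 libraries (triangles) per pairing, ordered by the change. CARS1 over CARS2 moves most, from at most 1.37 to at least 4.20, and the pairings at the bottom move the other way.

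Per length of the principal transcript, mitochondrial synthetases were expressed at lower levels than cytosolic ones. Their median was 15.1 and 13.4 CPM per kilobase in the controls and 11.2 and 10.4 with METTL14, against 54.8 and 59.9 and then 54.8 and 52.2 for the cytosolic enzymes. IARS2, for isoleucine, had the highest level of the mitochondrial set, at 45.4 and 50.8 CPM per kilobase in the controls, and PARS2 the lowest, at 4.34 and 3.91. By the mean of the controls, the highest levels were those of KARS1 (151 and 132 CPM per kilobase) and FARSA (111 and 78.5). In control replicate 2, FARSA was below GARS1 (96.2), NARS1 (94.9) and MARS1 (91.9). With METTL14, MARS1 (139 and 136) and GARS1 (119 and 116) stood above KARS1 (98.5 and 95.5), and FARSA was at 44.2 and 43.6. TARS3, at 4.55 and 4.61, was far below every other cytosolic enzyme.

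Synthetases fall into classes I and II by the fold of their catalytic domain. In the cytosol, 4 of 9 class I genes were higher and 1 lower, with a median log2 fold change of 0.13, and 2 of 9 class II genes were higher and 6 lower, with a median of -0.41. The shares over all genes tested are 27.0% higher and 28.1% lower, and the class II share of higher genes (22.2%) lay near the first. In mitochondria the medians were -0.32 for the 9 class I genes and -0.25 for the 8 class II genes. EPRS1, lower at -0.49, holds an enzyme of each class and was counted in neither. The classes were not tested against each other.

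Several cytosolic enzymes are held in the multisynthetase complex, whose scaffolds are AIMP1, AIMP2 and EEF1E1. Of its 11 genes, 6 were lower, 1 was higher (MARS1) and 4 were not called, with a median of -0.49. Over all genes tested, 28.1% were lower and 27.0% higher. Of the 7 cytosolic enzymes among the 11, 2 were lower (28.6%, near that background) and 1 higher, with a median of -0.17. The 12 cytosolic enzymes outside the complex had 6 lower, 5 higher and a median of -0.16. All 3 scaffold genes were lower. AIMP2 went from 101 and 81.5 to 48.4 and 44.1 CPM (log2 fold change -0.98, SE 0.13, edgeR adjusted p = 0.000781), and shares 28.9% of its exon sequence with EIF2AK1 on the other strand. AIMP1 went from 39.5 and 39.1 to 28.2 and 27.0 CPM (-0.51, edgeR adjusted p = 0.00622), and EEF1E1 from 38.9 and 35.1 to 23.1 and 23.0 CPM (-0.68, edgeR adjusted p = 0.00233). After correction for transcript length and GC, AIMP1 was at -0.02 and EEF1E1 at -0.09, and neither was called. AARSD1, the editing protein, fell from 39.3 and 32.6 to 22.8 and 23.8 CPM (-0.63, edgeR adjusted p = 0.00593) and shares 34.2% of its exon sequence with a readthrough transcript.

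ATF4 and its partner CHOP are known to raise transcription of a set of synthetase genes when amino acids run short. Of 12 synthetases listed as their targets from general knowledge, 7 were higher, 3 lower and 2 not called, with a median log2 fold change of 0.38. Over all genes tested 27.0% were higher and 28.1% lower, so the share of lower genes on the list lay near the background. The 7 were AARS1, CARS1, GARS1, MARS1, SARS1, WARS1 and YARS1, and the 3 lower were EPRS1, NARS1 and TARS1. Among cytosolic genes, the 11 on the list had a median of 0.35, and the 8 not on it a median of -0.75, with 5 lower and none higher. This list, like the others, was chosen with earlier results of these data known. The split of the cytosolic genes is thus a description only and was not tested. Of the 7 calls, 4 (GARS1, SARS1, WARS1 and YARS1) were lost without either METTL14 library.

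Of 20 tested genes listed as non-synthetase ATF4 targets, ATF4 included, 11 were higher and 4 lower, with a median of 0.48. This stands beside the same 27.0% higher and 28.1% lower over all genes. ATF4 itself was not called, at 348 and 505 CPM in the controls and 567 and 572 CPM with METTL14 (0.42, edgeR adjusted p = 0.0701). DDIT3, which encodes CHOP, was not called either, at 11.6 and 26.1 against 14.5 and 14 CPM (-0.41, edgeR adjusted p = 0.33). Both were named after their values were seen. CHAC1, which degrades glutathione, rose from 7.02 and 10.8 to 48.4 and 46.6 CPM (log2 fold change 2.41, SE 0.194). DDIT4, an inhibitor of mTORC1, rose from 17.9 and 39.5 to 119 and 111 CPM (2.0, edgeR adjusted p = 0.00196). ASNS, asparagine synthetase, rose from 61.7 and 128 to 280 and 282 CPM (1.57, edgeR adjusted p = 0.00418), and was named after its values were seen. With replicate number as a block, DDIT4 (adjusted p = 0.186) and ASNS (adjusted p = 0.128) were not called, and DDIT4 was also lost without METTL14 replicate 1. ATF5, itself a target and a transcription factor, fell from 39.5 and 21.5 to 8.07 and 7.81 CPM (-1.94, SE 0.281).

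ATF4 binds a sequence known as the C/EBP-ATF response element, searched here as TGATGNAA on both strands of the RefSeq promoter windows (GRCh38.p14, 250 bases before to 50 after a gene's start). RefSeq windows were found for 33 of the 41 genes. The letters occurred in 8 of these 33 genes (24.2%), against 2.73% of the 10128 tested genes with a window and 4.46% of all genes with one. By windows, the share was 17.8% for these genes and 3.62% of all 35116. They were found in 6 of 14 cytosolic genes with a window, in 1 of 14 mitochondrial genes and in GARS1. A match is a description of the letters, not evidence that the site is bound. The 30 bases around each match are shown to compare genes of both directions, 5′ to 3′ along the gene, with the matching letters in capitals.

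AARS1 (higher, chr16:70289675-70289704, minus strand): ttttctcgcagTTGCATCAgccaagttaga
CARS1 (higher, chr11:3057407-3057436, minus strand): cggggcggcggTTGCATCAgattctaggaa
MARS1 (higher, chr12:57488053-57488082, plus strand): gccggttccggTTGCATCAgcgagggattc
GARS1 (higher, chr7:30594834-30594863, plus strand): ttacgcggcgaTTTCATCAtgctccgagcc
IARS1 (not called, chr9:92293692-92293721, minus strand): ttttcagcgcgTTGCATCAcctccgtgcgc
TARS1 (lower, chr5:33440956-33440985, plus strand): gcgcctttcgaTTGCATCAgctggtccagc
NARS1 (lower, chr18:57621804-57621833, minus strand): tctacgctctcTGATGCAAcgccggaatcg
YARS2 (lower, chr12:32756076-32756105, minus strand): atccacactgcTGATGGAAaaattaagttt

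Cytosolic genes with a match carried the same 8 letters, TTGCATCA, or their reverse complement in NARS1, whether the mRNA was higher, lower or not called. GARS1 and YARS2 differed from them at the N. In AARS1 the match lay 187 bases before the annotated start. It is shown within the 250 bases upstream of the start (chr16:70289507-70289756, minus strand), since AARS1 had the joint largest rise.

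AARS1 upstream: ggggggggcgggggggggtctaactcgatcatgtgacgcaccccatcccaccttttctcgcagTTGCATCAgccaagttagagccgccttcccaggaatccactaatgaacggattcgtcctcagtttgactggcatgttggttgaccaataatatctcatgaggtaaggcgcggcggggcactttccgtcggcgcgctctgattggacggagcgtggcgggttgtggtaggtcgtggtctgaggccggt

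Another pair of motifs was searched in the same windows. CACGTG, the E-box bound by MYC among others, was in 5 of the 33 genes (15.2%) and 12.6% of tested genes. GCGCNTGCG, the core of the NRF1 site of many mitochondrial genes, was in 10 of the 33 (30.3%) and 17% of tested genes. It was found in 4 of 14 cytosolic and 4 of 14 mitochondrial genes. Some genes held more than 1 of the motifs, such as NARS1 and TARS1. The start that a gene uses in these cells was not measured. Of the windows with a TGATGNAA match, those of MARS1, NARS1 and TARS1 lie inside the gene's GENCODE span.

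Charged tRNA is carried to the ribosome by elongation factors. In the cytosol EEF1B2 fell from 322 and 343 to 170 and 178 CPM (log2 fold change -0.93, SE 0.0973) and EEF1D from 290 and 268 to 166 and 162 CPM (-0.77, SE 0.0982). Both exchange the nucleotide on the carrier EEF1A. Of the 5 genes of that list 3 were lower, none was higher and 2 were not called. The carrier gene EEF1A1, with the highest level of the list, was not called. It had 10106 and 10154 CPM in the controls against 9628 and 9514 CPM with METTL14 (-0.08), and was named after its values were seen. Over all genes tested, 28.1% were lower and 27.0% higher, the background for each count in this paragraph. In mitochondria the carrier TUFM fell from 529 and 463 to 376 and 361 CPM (-0.43, edgeR adjusted p = 0.0114) and its exchange factor TSFM from 44.3 and 38.2 to 27.1 and 28.3 CPM (-0.57, edgeR adjusted p = 0.00603). The call of TUFM was lost without either METTL14 library, and that of TSFM without METTL14 replicate 1. Mitochondria make glutaminyl-tRNA and formylmethionyl-tRNA by modifying charged tRNA, and none of the 4 genes for these steps was called.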

How the data were processed

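Per the labels' protocols, mRNA was enriched from Trizol extracts, and NEBNext Ultra libraries were run on an Illumina instrument. Per the submitters' processing notes, fastp, Bowtie2, HISAT2, StringTie and RSEM were used and the build was hg18. Of 20323 deposited gene identifiers, 20171 are in GENCODE release 29 (GRCh38), so the build behind the counts is unclear. Gene positions, lengths and exon overlaps here are GENCODE's.

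The authors deposited expected counts per gene, not normalized, of which 10.8 to 11.6% per library are not whole. They were rounded and tested with R 4.3.3 and edgeR 4.0.16: filterByExpr at a minimum count of 10, TMM scaling, and the robust quasi-likelihood test without covariates. Groups came from the sample titles. Benjamini-Hochberg adjustment ran over 12700 genes. Standard errors (approximate) divide the absolute log2 fold change by the root of F. An exact permutation test of 2 libraries against 2 could not pass the threshold, so p-values rest on a spread shared over genes. RSEM divides reads among overlapping genes: 15 of the 41 members share exon sequence with another gene. When the procedure was tested on simulated data, most changes of 1.5-fold were missed and some unchanged genes were called. Far fewer genes were changed there than were called in the real data, so the share missed does not carry over. Python 3.11.15, numpy 2.4.6 and pandas 2.3.3 were used otherwise.

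Alternatives used DESeq2 1.42.0 or its size factors, limma-voom (limma 3.58.1), other filters and scalings, no robust step, a replicate block, glmTreat against 1.5-fold, removal of a loess trend (span 0.5) on length and GC over 12653 genes, and leaving out each library. Named genes are METTL14, the members and up to 4 genes with the smallest p per list. Members and lists were chosen with earlier results of these data known. Some members enter the counts, sums and medians but are not reported individually here or drawn.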

Additional observations from a re-analysis of the deposited data

How the results depend on the processing

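Of 26 called members, 14 kept their call when either METTL14 library was left out, 11 lost it in both cases and 1 (KARS1) in one. No called member changed sign under any alternative run. Leaving out single libraries gave 3 to 7 cytosolic genes higher and 5 to 10 lower, 0 to 1 mitochondrial genes higher and 4 to 11 lower, a median log2 fold change of mitochondrial genes from -0.40 to -0.13, and 4614 to 9027 genes called in all. The highest counts came without a control, and the lone library of a group is then assumed to vary like the other group. Against a change of 1.5-fold, glmTreat called 2773 of 12700 genes, 1416 higher and 1357 lower. Among them were 1 cytosolic gene higher and 3 lower, and 0 mitochondrial genes higher and 2 lower. Corrected for length and GC, the median was -0.04 for cytosolic and -0.46 for mitochondrial genes. Then 4 cytosolic genes were higher and 8 lower, and 2 mitochondrial genes higher and 9 lower. Over the 12653 genes tested that way, 3147 were higher and 3626 lower. The cause of the shift in the medians was not tested. The mitochondrial median was -0.26 with library totals and -0.29 with a filter of 5 CPM. DESeq2 called 6 cytosolic genes higher and 8 lower, with 5 mitochondrial genes lower, beside 3154 higher and 3172 lower of 12700 genes.

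With a replicate block, 6 cytosolic genes were higher and 9 lower, and 9 mitochondrial genes were lower, with 7700 genes called in all. Of those 7700, 3797 were higher and 3903 lower. Deviations of same-numbered libraries correlated at 0.044, so the numbers were not taken as pairs. Counting GARS1 and KARS1 as cytosolic gave 7 higher and 9 lower. Summing rows of a symbol changes nothing, since SARS2 alone has another row, at 0 in each library. Depth allows these calls: the lowest count of a member was 151.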

Other observations

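Other lists chosen for this pathway covered the making and maturing of tRNA, and each count is to be read against 27.0% higher and 28.1% lower over all genes tested. Of 11 genes of nuclear RNase P, which trims the leader of precursor tRNA, 9 were lower and none higher, with a median log2 fold change of -0.85. Its largest protein, POP1, fell from 32.7 and 27.6 to 8.07 and 7.66 CPM (-1.94, SE 0.149), and POP7 from 57.8 and 54.7 to 24.8 and 27.1 CPM (-1.12, SE 0.112). Of 21 genes of RNA polymerase III, which transcribes tRNA genes, and its factors, 9 were lower and 2 higher, with a median of -0.37. GTF3C6, of the factor that binds tRNA gene promoters, fell from 50.6 and 48.5 to 15.2 and 18.8 CPM (-1.54, SE 0.137), and POLR3C, a polymerase subunit, from 43.4 and 37.8 to 18.2 and 17.4 CPM (-1.19, SE 0.126).

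Of 12 genes of tRNA end processing, splicing and export, 4 were lower and 1 higher, a share of lower genes near that background. SSB, the La protein that binds the tail of new transcripts of that polymerase, fell from 159 and 171 to 71.5 and 78.7 CPM (log2 fold change -1.14, SE 0.104, or -0.65 after correction for transcript length and GC), and ELAC2, which trims the trailer, from 202 and 161 to 110 and 111 CPM (-0.71, SE 0.128). The higher gene was XPOT, which exports tRNA from the nucleus and is also on the list of ATF4 targets (136 and 189 against 242 and 239 CPM, 0.56, edgeR adjusted p = 0.0181), named after its values were seen and at 0.35 without control replicate 1. Of 9 genes of mitochondrial tRNA processing 5 were lower and none higher. Of 11 genes of amino acid sensing by the kinase GCN2 and its target eIF2, 3 were higher and 4 lower, both near the background. EIF2B3, a subunit of the exchange factor, was at -1.22 (SE 0.115). Of 6 tested genes that clear mischarged tRNA or peptidyl-tRNA, 2 were lower, 1 of them AARSD1. RNA levels of tRNA itself were not measured in these poly(A) libraries.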
